A study of Mus musculus with 6 samples.

Results

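Transcript levels of 29 genes of cholesterol synthesis and of its control by SREBP2 were examined in sorted intestinal fibroblasts. They were chosen by name from the 15238 genes of the deposited table, and all 29 were present in it. They comprise 20 genes of the synthesis route with its geranylgeranyl branch, 6 genes of SREBP2 and its processing, and 3 genes of sterol transport. The fibroblasts were taken from Balb/c pups on postnatal day 9 and were sorted as podoplanin-positive and negative for CD45, EpCAM and CD31. Podoplanin is a surface protein of fibroblasts, and the 3 excluded proteins mark leukocytes, epithelium and endothelium. One group was wild-type (replicates 1, 3 and 4) and the other DdblGata1 (replicates 4, 9 and 10). DdblGata1 animals lack a GATA site in the promoter of the Gata1 gene, whose product directs the formation of blood cells, and do not form eosinophils. The deletion is present in every cell of the animal, the fibroblasts included. The question was what the absence of eosinophils changes in these cells. The labels do not give sex, litter or batch, nor whether a library came from 1 pup, so the p-values measure only the spread between these 6 libraries, which may be technical.

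Cholesterol is built from acetyl-CoA by way of mevalonate, farnesyl diphosphate, squalene and lanosterol, and farnesyl diphosphate also feeds the isoprenoids that anchor proteins to membranes. SREBP2 (Srebf2) is a transcription factor made as a membrane protein of the endoplasmic reticulum. When sterols are scarce, Scap carries it to the Golgi, the proteases Mbtps1 and Mbtps2 release its active part, and genes of the whole route are transcribed. When sterols are plentiful, Insig1 and Insig2 hold Scap back.

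SREBP2 is known to bind sterol regulatory elements, usually beside CCAAT boxes and GC boxes bound by other factors. Promoters from RefSeq (GRCm38.p6, 250 bases before to 50 after each gene's start) were found for 24 of the 29 genes. The core TCACNCCA, searched on both strands, matched in 3 of them. These 3 are shown because they hold the core letters of the element, but binding of SREBP2 to them was not measured. Bases in capitals are the core and any CCAAT box, which reads ATTGG where it lies on the opposite strand. GC boxes are left in lower case.

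Hmgcs1, chr13:119690101-119690350, plus strand: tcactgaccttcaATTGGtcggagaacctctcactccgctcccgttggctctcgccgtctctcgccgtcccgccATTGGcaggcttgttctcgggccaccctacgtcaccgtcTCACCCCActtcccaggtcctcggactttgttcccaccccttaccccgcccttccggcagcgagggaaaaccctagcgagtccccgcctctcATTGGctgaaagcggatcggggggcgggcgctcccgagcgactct
Srebf2, chr15:82147019-82147180, plus strand: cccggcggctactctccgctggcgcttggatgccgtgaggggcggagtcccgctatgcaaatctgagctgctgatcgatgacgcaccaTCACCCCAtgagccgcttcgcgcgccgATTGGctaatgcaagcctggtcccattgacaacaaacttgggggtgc
Msmo1, chr8:64733737-64733766, minus strand: tctcactattcTCACTCCAtccgcgcagCC

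The core began 137 bases before the RefSeq start of Hmgcs1, 162 before that of Srebf2 and 177 before that of Msmo1. In Msmo1 it lay inside an annotated GENCODE transcript, and the last 2 capitals are the first letters of a CCAAT box. At 3 of 24 genes, the core was in 12.5% of the genes, against 4.97% of the genes with a RefSeq promoter. The longer core TCACNCCAC, which contains the first, matched in 1 gene, Hmgcs1. CCAAT on either strand was in 66.7% of the 30 promoters of these genes and in 37.4% of all promoters. The GC box GGGCGG was in 80.0% against 35.7%, but in 59.5% of the promoters of genes measured here. The E-box CACGTG was in 20.0% against 7.15%, and in 9.27% of the promoters of genes measured here. These are matches of letters in a fixed window and say nothing of binding.

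Library depth was even, at 30210644 to 31210800 estimated counts in wild-type and 28110454 to 30993472 in DdblGata1 libraries. Gata1 transcripts had an estimated count of 0 in all libraries but wild-type replicate 1, which had 1, so these cells gave no check of the deletion. All 9 fibroblast markers were measured, with a summed level of 108721 to 154460 CPM in wild-type and 107224 to 148048 CPM in DdblGata1 libraries. CPM are counts relative to library size after TMM scaling between libraries. Over all genes, no gene passed an adjusted p of 0.05 by edgeR's quasi-likelihood test (0% of 15238). DESeq2 called 0.473% lower and 0.932% higher in DdblGata1. At an unadjusted p of 0.05, edgeR gave 645 genes lower and 919 higher.

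None of the 29 genes passed the adjusted threshold by either tool. Their lowest adjusted p was 0.407 by edgeR and 0.0962 by DESeq2, both for Tm7sf2. By fitted value, 25 of the 29 were lower in DdblGata1, against 50.7% of all genes. Fold changes are fitted values on the log2 scale, negative where DdblGata1 was lower. Their median was -0.36 over the 29 genes and -0.01 over all genes. At an unadjusted edgeR p of 0.05, 4 were lower (background 4.23%) and 1 was higher (background 6.03%). In those same 4 genes, Tm7sf2, Pmvk, Ebp and Fdps, every DdblGata1 library lay under every wild-type library in CPM, as in 7.34% of all genes. In 2 genes, Insig2 and Ggps1, every DdblGata1 library lay above them, as in 8.98% of all genes. In bulk samples, fewer cells of a type and less RNA per cell cannot be told apart.

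The libraries differed among themselves within the DdblGata1 group. In DdblGata1 replicate 10, 25 of the 29 genes were below all 3 wild-type libraries (background 32.2%) and 2 were above them (background 33.1%). In DdblGata1 replicate 9, 21 were below (background 26.7%) and 3 above (background 28.1%). In DdblGata1 replicate 4, only 5 were below (background 24.8%) and 8 above (background 25.7%). The median log2 difference from the wild-type mean over the 29 genes was 0.04, -0.39 and -0.72 in DdblGata1 replicates 4, 9 and 10. Replicate 10 was the lowest of the 6 libraries in 19 genes (background 23.5%), and wild-type replicate 4 the highest in 12 (background 11.8%). The shares of genes outside the wild-type range show the pathway beside all genes in each library.

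**Figure D1:**
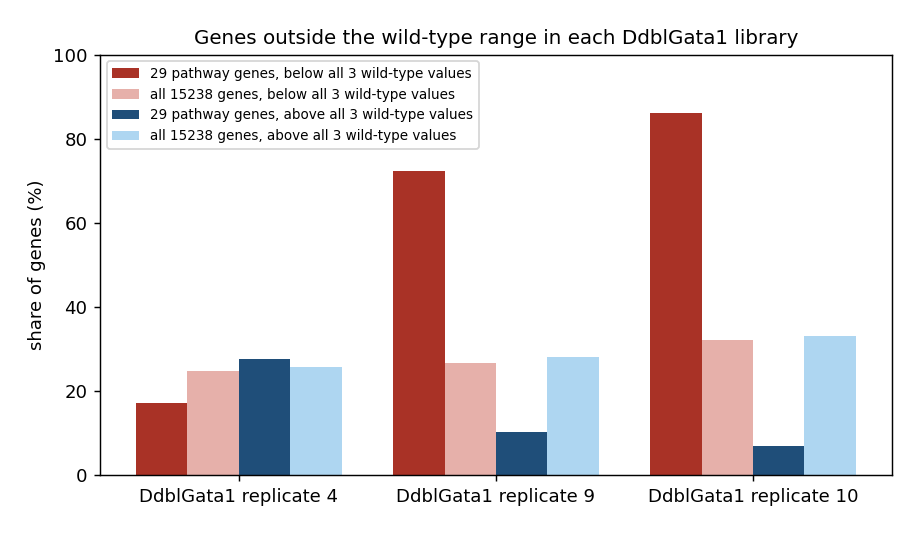
Share of genes (%) below or above all 3 wild-type libraries in DdblGata1 replicates 4, 9 and 10, for the 29 pathway genes and for all 15238 genes. The pathway's share below was 17.2% in replicate 4, 72.4% in replicate 9 and 86.2% in replicate 10, against 24.8%, 26.7% and 32.2% of all genes.

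Levels between genes were compared in TPM, which is per length. The highest were the protease gene Mbtps1 (131 ± 18.3 TPM in wild-type and 157 ± 32.7 in DdblGata1, mean ± SD, n = 3 each) and Npc2 (112 ± 12.0 and 109 ± 8.94). Hmgcs1 (104 ± 8.0 and 86.5 ± 24.4), Fdps (92.4 ± 3.26 and 62.6 ± 26.8) and Srebf2 (90.1 ± 6.28 and 66.7 ± 34.5) followed. In wild-type, Fdps and Srebf2 differed by less than their SD, and the ranges of mean ± SD of Mbtps1 and Npc2 overlapped. The lowest were Npc1, Mvd, Lss and Hsd17b7, with a mean of 9.25 to 11.3 TPM over all libraries. The remaining 20 genes had means between 12.6 and 63.2 TPM.

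**Figure D2:**
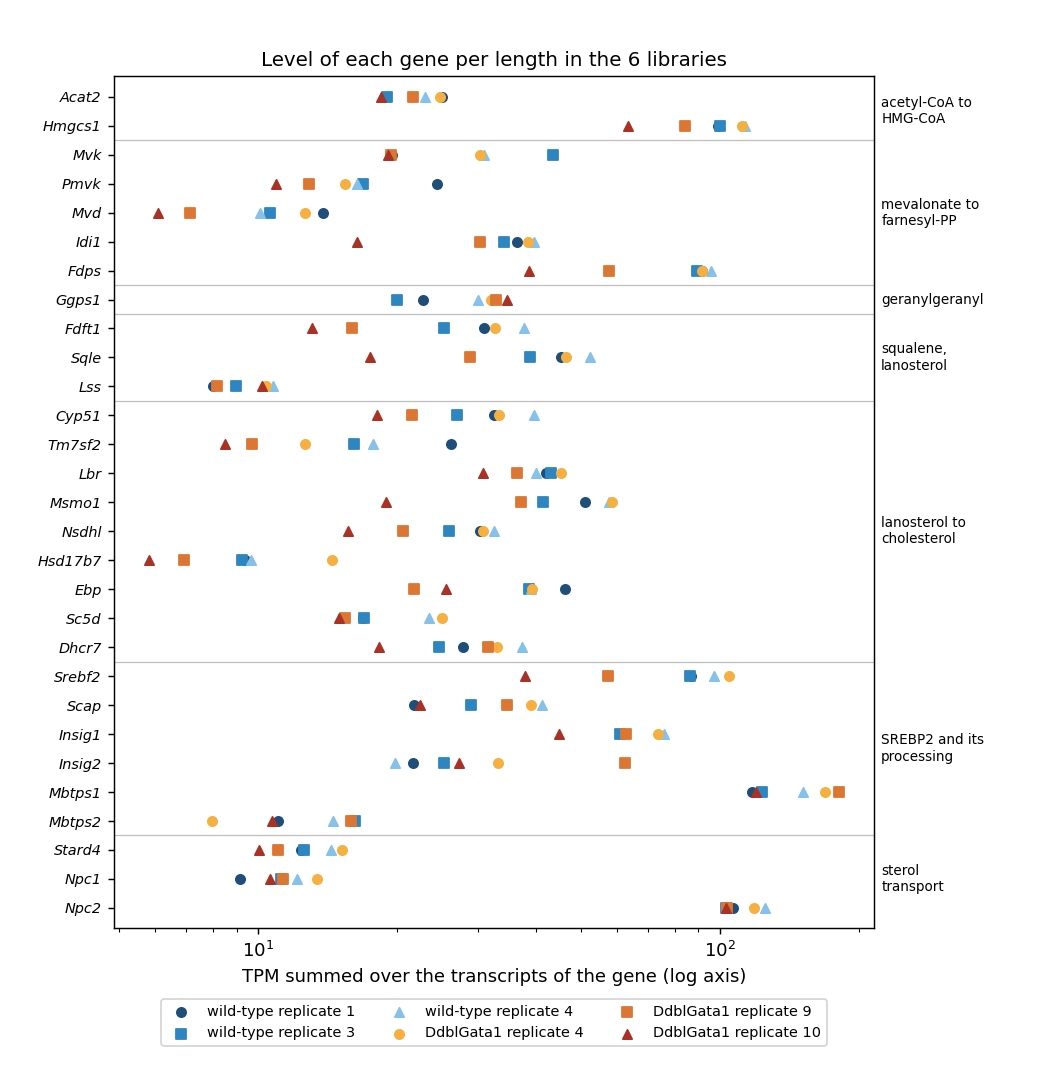
Level per length of each of the 29 genes in TPM (log axis) in each of the 6 libraries, ordered by pathway step. Mbtps1 was the most abundant, at 118 to 152 TPM in wild-type libraries, and Lss was among the least, at 8.0 to 10.8 TPM.

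For each step, values are TMM-scaled CPM in the order wild-type replicates 1, 3 and 4, then DdblGata1 replicates 4, 9 and 10. The first step makes HMG-CoA, the precursor of mevalonate. Hmgcs1, the HMG-CoA synthase of the cytosol (GRCm38 chromosome 13, 119690379 to 119708260), was at 166, 173 and 181 CPM in wild-type and at 172, 131 and 103 CPM in DdblGata1. DdblGata1 replicates 9 and 10 were below every wild-type library, and replicate 4 was within their range. The log2 fold change was -0.36 ± 0.20 (SE), with an unadjusted edgeR p of 0.106. Acat2, the thiolase that joins acetyl-CoA units, was at 29.8, 23.4 and 26.1 CPM against 27.1, 24.0 and 21.3 CPM. Its groups overlapped, and the fitted value was -0.13 ± 0.17. Its near-identical neighbour Acat3 had 1.48 to 13.6 estimated counts per library, and the counting could have split reads between them.

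All 5 genes from mevalonate to farnesyl diphosphate had lower fitted values in DdblGata1, and in replicates 9 and 10 all 5 were below the wild-type range. Fdps, the synthase of farnesyl diphosphate (chromosome 3, 89093588 to 89101959), was at 60.0, 60.5 and 59.8 CPM in wild-type and 55.2, 35.0 and 24.5 CPM in DdblGata1. The wild-type libraries lay within 1 CPM of each other (SD 0.397), all DdblGata1 libraries were lower, and the last was the lowest. Fdps differed by -0.65 ± 0.27 on the log2 scale, with an unadjusted p of 0.0413 and an adjusted p of 0.483 by edgeR. Pmvk, the kinase that adds the second phosphate to mevalonate (chromosome 3, 89454541 to 89469013), was at 15.6, 11.2 and 9.98 CPM against 9.09, 7.64 and 6.78 CPM. Its groups did not overlap, but wild-type replicate 4 and DdblGata1 replicate 4 were close. The estimate was -0.64 ± 0.25, with an unadjusted p of 0.0304 and an adjusted p of 0.461 by edgeR.

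Idi1, the isomerase that makes the reactive isoprene unit, was at 55.0, 53.5 and 57.2 CPM against 53.7, 42.6 and 24.2 CPM. DdblGata1 replicate 4 was between wild-type replicates 1 and 3, and the other two were lower (-0.46 ± 0.26). Mvd, the decarboxylase of the same branch, was at 16.8, 13.3 and 11.7 CPM against 14.2, 8.08 and 7.17 CPM (-0.51 ± 0.30). It showed the same order, with replicate 4 inside the wild-type range. Mvk, the first kinase acting on mevalonate, spread widely within wild-type, at 14.8, 34.1 and 22.4 CPM, and was at 21.2, 13.7 and 14.1 CPM in DdblGata1. Its groups overlapped, and the estimate was -0.54 ± 0.32.

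Ggps1 was the only member of the branch to geranylgeranyl diphosphate, a lipid that anchors small GTPases, and the only one of the 20 synthesis genes with a higher fitted value in DdblGata1. It was at 29.8, 27.1 and 37.5 CPM in wild-type and at 38.7, 40.0 and 44.0 CPM in DdblGata1. The 3 DdblGata1 libraries were above every wild-type library, though the gap between wild-type replicate 4 and DdblGata1 replicate 4 was small. The log2 fold change was 0.38 ± 0.17, with an unadjusted p of 0.0554 and an adjusted p of 0.489 by edgeR.

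Squalene is the first intermediate committed to sterols. Fdft1, the squalene synthase (chromosome 14, 63145150 to 63179578), was at 53.0, 44.9 and 61.7 CPM in wild-type and at 51.6, 25.5 and 21.8 CPM in DdblGata1. Replicate 4 was inside the wild-type range, and replicates 9 and 10 were at log2 differences of -1.05 and -1.27 from the wild-type mean. Over the 3 libraries the estimate was -0.69 ± 0.32, with an unadjusted edgeR p of 0.0614. Sqle, the squalene epoxidase (chromosome 15, 59315077 to 59331192), was at 74.1, 65.6 and 81.7 CPM against 70.0, 43.9 and 27.8 CPM (-0.64 ± 0.30). It had the order of Fdft1, with replicate 10 the lowest. Lss, which closes the rings to lanosterol, was at 18.6, 21.5 and 23.9 CPM against 22.3, 17.6 and 23.0 CPM. Unlike its neighbours it was within the wild-type range in replicate 10, and its estimate was -0.02 ± 0.18, or -0.47 with plain sums of transcript counts.

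**Figure D3:**
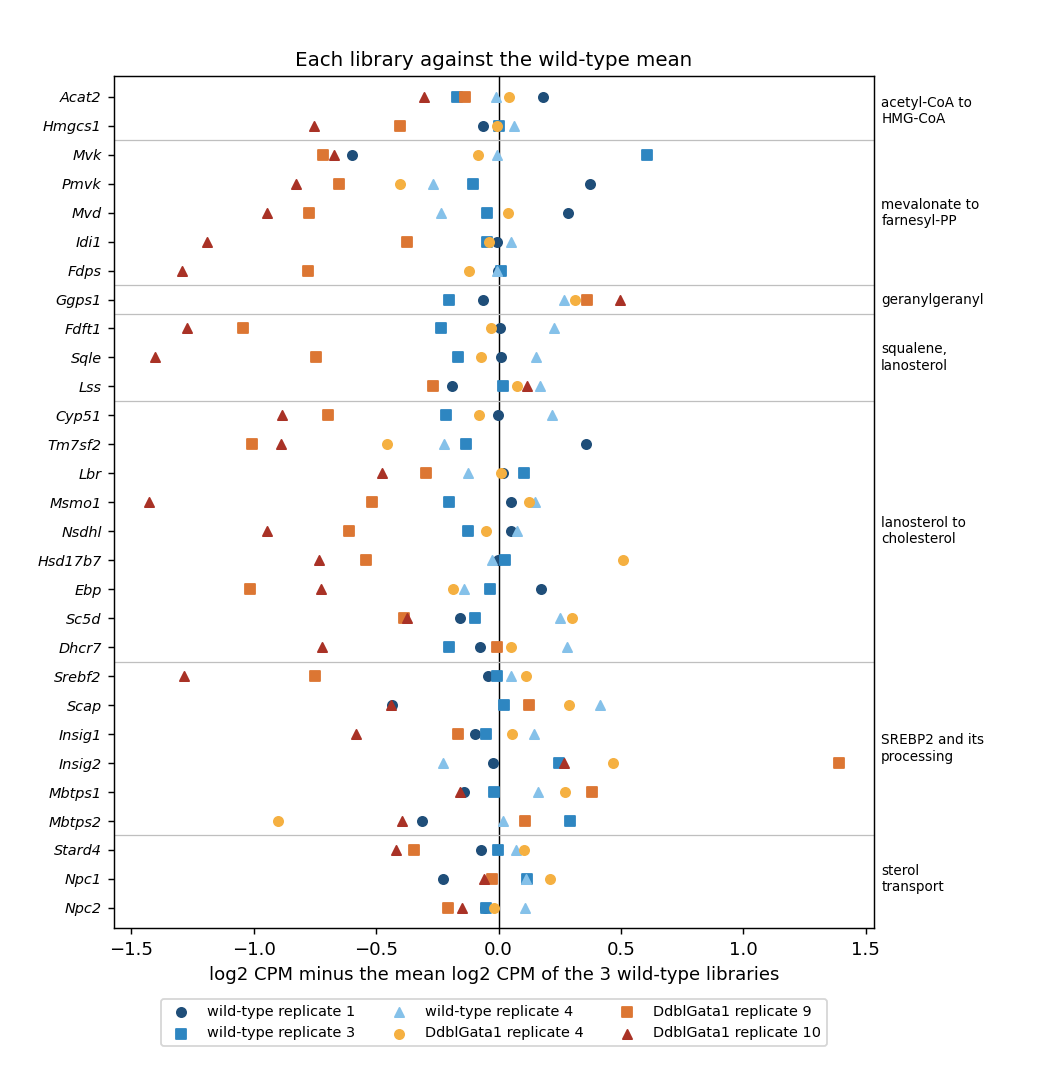
Log2 CPM minus the mean log2 CPM of the wild-type libraries for each of the 29 genes (rows, by pathway step), with 1 point for each of the 6 libraries along the horizontal axis. Most synthesis genes were near 0 in DdblGata1 replicate 4 and negative in replicates 9 and 10, while Ggps1 was positive in all 3.

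All 9 genes from lanosterol to cholesterol had lower fitted values in DdblGata1. In replicate 10 all 9 were below the wild-type range, in replicate 9 it was 8, and in replicate 4 it was 2. Tm7sf2, a sterol reductase acting after the removal of the first methyl group (chromosome 19, 6062821 to 6068373), was at 31, 22.1 and 20.7 CPM in wild-type and at 17.6, 12.0 and 13.1 CPM in DdblGata1. All DdblGata1 libraries were below wild-type, replicate 4 included. It had the lowest p of the 29 genes: -0.79 ± 0.23, unadjusted p 0.00926 and adjusted p 0.407 by edgeR. Its mean was 24.6 ± 5.60 CPM in wild-type and 14.3 ± 2.98 CPM in DdblGata1, or 1.73-fold lower (SD, n = 3 each).

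Ebp, the isomerase that moves a ring double bond (chromosome X, 8185329 to 8193512), was at 26.2, 22.7 and 21.1 CPM against 20.4, 11.5 and 14.0 CPM. Its groups did not overlap, with DdblGata1 replicate 4 just under wild-type replicate 4. The estimate was -0.61 ± 0.24, with an unadjusted p of 0.0338 and an adjusted p of 0.474 by edgeR, and it was -0.29 with plain sums of transcript counts. Cyp51, the lanosterol demethylase, was at 71.6, 61.7 and 83.3 CPM against 67.8, 44.2 and 38.8 CPM (-0.52 ± 0.23). Nsdhl, a decarboxylating dehydrogenase, was at 35.7, 31.6 and 36.3 CPM against 33.3, 22.6 and 17.9 CPM (-0.49 ± 0.24). In both, replicate 4 was inside the wild-type range and the other DdblGata1 libraries were under it. Msmo1, the methyl oxidase of the same demethylation, was at 48.1, 40.4 and 51.5 CPM against 50.6, 32.4 and 17.2 CPM (-0.48 ± 0.34). Its replicate 10 was at -1.43 from the wild-type mean, the largest negative difference of any of the 29 genes in any library.

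Hsd17b7, a ketoreductase, was nearly constant in wild-type at 19.2, 19.6 and 18.9 CPM and spread in DdblGata1 at 27.3, 13.2 and 11.6 CPM. Replicate 4 was above all wild-type libraries and the other two below, so the estimate was near 0 (-0.15 ± 0.32). Sc5d, a desaturase, showed the same split at 30.3, 31.6 and 40.3 CPM against 41.5, 25.8 and 26.1 CPM (-0.13 ± 0.23). Dhcr7, the reductase of the closing steps, was at 28.9, 26.4 and 36.8 CPM against 31.5, 30.3 and 18.4 CPM (-0.20 ± 0.24, or -0.64 with plain sums of transcript counts). It was the one gene of this stretch inside the wild-type range in replicate 9. Lbr, which carries the same reductase activity as Tm7sf2 and also binds lamin, was at 53.0, 56.2 and 48.1 CPM against 52.7, 42.7 and 37.7 CPM (-0.24 ± 0.17).

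Over the 20 synthesis genes, the median log2 difference from the wild-type mean was -0.02, -0.58 and -0.79 in DdblGata1 replicates 4, 9 and 10. Of these genes, 4, 17 and 18 were below the wild-type range in the 3 libraries. Tm7sf2, Pmvk, Ebp and Fdps were thus the synthesis genes that lay below wild-type in replicate 4 too, in CPM. In TPM, replicate 4 was inside the wild-type range for Fdps (91.5 TPM) and Ebp (39.2 TPM).

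Srebf2 itself (chromosome 15, 82147181 to 82205379) was at 234, 240.2 and 249.95 CPM in wild-type and at 261, 143 and 99.0 CPM in DdblGata1. Replicate 4 was the highest of the 6 libraries, and replicate 10 was at -1.29 from the wild-type mean on the log2 scale. The DdblGata1 SD was 83.5 CPM and that of wild-type 8.13 CPM. The fitted log2 fold change was -0.53 ± 0.31, with an unadjusted p of 0.133 and an adjusted p of 0.561 by edgeR. Insig1, itself a target of SREBP2, was at 88.0, 90.6 and 104 CPM against 97.5, 83.7 and 62.7 CPM (-0.21 ± 0.18). Within DdblGata1 its values followed the same order with smaller steps, but replicate 4 was inside the wild-type range.

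Insig2, the other retention protein, went the other way (chromosome 1, 121304353 to 121332589). It was at 20.8, 25.0 and 18 CPM in wild-type and at 29.2, 55.3 and 25.3 CPM in DdblGata1. Replicate 9 was far above the rest, while replicate 10 was only just above wild-type replicate 3. The estimate was 0.78 ± 0.30, with an unadjusted p of 0.0323 and an adjusted p of 0.467 by edgeR. Without replicate 9 the estimate was 0.34 ± 0.23, and with plain sums of transcript counts it was 0.034.

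Scap, the escort of SREBP2, was at 36.1, 49.7 and 65.2 CPM against 59.7, 53.2 and 36.1 CPM (-0.02 ± 0.26). Mbtps1, the first protease, was at 250.5, 272 and 308 CPM against 333, 359 and 247 CPM (0.18 ± 0.18). Mbtps2, the second, was at 21, 31.9 and 26.4 CPM against 14.0, 28.1 and 19.8 CPM (-0.36 ± 0.28). The groups of all 3 overlapped, and in replicate 9, where most synthesis genes were below wild-type, none of the 3 was.

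Of the transport genes, Stard4, a carrier of sterols between membranes and a target of SREBP2, was at 35.3, 37.0 and 39.0 CPM against 39.9, 29.2 and 27.7 CPM (-0.20 ± 0.18). It had the split of Hsd17b7 and Sc5d, with replicate 4 above wild-type and the other two below. Npc1 and Npc2, which move cholesterol out of lysosomes, differed little. Npc1 was at 30.8, 39.1 and 39.0 CPM against 41.7, 35.4 and 34.6 CPM (0.04 ± 0.16). Npc2 was at 216, 217 and 243 CPM against 222, 195 and 203 CPM (-0.12 ± 0.14).

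Leaving out DdblGata1 replicate 4 changed the counts more than leaving out any other library. Without it, 16 of the 29 genes were lower at an unadjusted edgeR p of 0.05, where the background was 8.2%. In 20 genes both other DdblGata1 libraries were below all wild-type libraries (background 19%), and the median log2 fold change was -0.57. No member passed edgeR's adjusted threshold. DESeq2, run without each library as an alternative chosen after seeing the data, called 12 members without replicate 4, all lower (background 3.2%). These were Fdft1, Srebf2, Fdps, Sqle, Cyp51, Ebp, Nsdhl, Tm7sf2, Hmgcs1, Hsd17b7, Mvd and Msmo1.

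Fdft1 had a DESeq2 log2 fold change of -1.17 there, with an adjusted p of 3.58e-05 that ranged up to 0.943 over its alternatives. Srebf2 was at -1.001 (adjusted p 0.000261, up to 0.990 elsewhere), Fdps at -1.02 (0.000303, up to 0.899) and Sqle at -1.05 (0.00271, up to 0.940). By edgeR on the same 5 libraries, Fdft1 was at -1.17 ± 0.19 with an adjusted p of 0.176. The replicate left out carries the same genotype label as the other two, and the labels give no ground for setting it aside.

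Leaving out any other library lowered this count. Genes lower at an unadjusted edgeR p of 0.05 numbered 2, 3 and 3 without wild-type replicates 1, 3 and 4, where 3.53%, 3.87% and 4.73% of all genes were. They numbered 2 without DdblGata1 replicate 9 (3.11% of all genes) and 1, Tm7sf2, without replicate 10 (2.47%). Counts of 1 or 2 of 29 are near these shares. Genes below wild-type in all remaining DdblGata1 libraries numbered 7, 9, 5, 6 and 5 in the same order, where 10.9% to 13.2% of all genes were. The median log2 fold change was -0.18 without replicate 10 and between -0.38 and -0.24 without any of the other 4 libraries. Tm7sf2 was lower at an unadjusted p under 0.05 whichever library was left out, with estimates from -0.97 to -0.61. Pmvk, Ebp and Fdps were not. Without wild-type replicate 1, their unadjusted edgeR p was 0.101, 0.0809 and 0.0654.

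**Figure D4:**
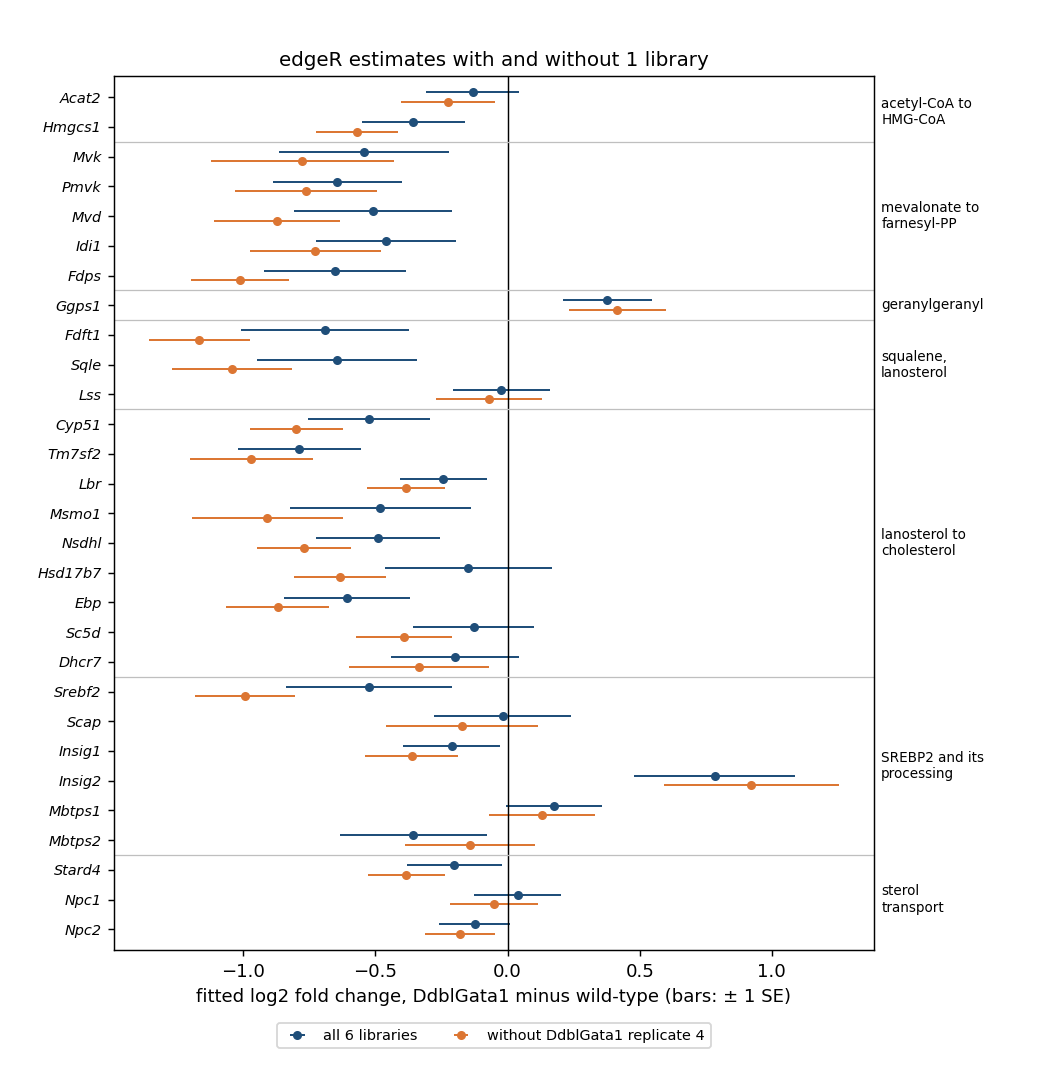
Fitted edgeR log2 fold changes (DdblGata1 minus wild-type, bars ± 1 SE) of the 29 genes with all 6 libraries and without DdblGata1 replicate 4. Fdft1 moved from -0.69 to -1.17 and Srebf2 from -0.53 to -0.99, while Insig2 and Ggps1 were positive in both fits.

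Other genes of lipid and sterol biology were read from lists made by function. Of 17 measured genes of fatty acid synthesis, the field of the related factor SREBP1, 12 had lower and 5 higher fitted values, with a median of -0.18. Only Elovl6, a fatty acid elongase, was lower at an unadjusted p of 0.05 (-0.50 ± 0.15). Fasn, the fatty acid synthase, was at 199, 180.3 and 164 CPM against 193, 114 and 83.2 CPM, so replicate 4 was again within wild-type and the other two were below it. Srebf1, the gene of SREBP1, was at 77.9, 82.9 and 78.7 CPM against 72.6, 64.6 and 49.3 CPM, without overlap (-0.36 ± 0.17). Scd1, a desaturase, was higher in all DdblGata1 libraries (0.52 ± 0.24).

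Among 15 regulators of the SREBP2 pathway, 8 had lower and 7 higher fitted values (median -0.01). Erlin1, a protein of the endoplasmic reticulum (0.47 ± 0.16), and Mylip (0.73 ± 0.29) were higher at an unadjusted edgeR p of 0.05. Mylip, a ubiquitin ligase for lipoprotein receptors, was at 16.4, 18.5 and 15.5 CPM against 15.8, 32.8 and 35.1 CPM. Its replicate 4 was with wild-type, and replicates 9 and 10 were above.

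Among 19 genes of sterol uptake, storage and movement, 10 had lower and 9 higher fitted values (median -0.04). Abca1, the pump that exports cholesterol from cells, was at 23.7, 53.6 and 37.0 CPM in wild-type and at 71.1, 99.1 and 155 CPM in DdblGata1. All DdblGata1 libraries were above wild-type, with replicate 10 the highest. Its log2 fold change was 1.51 ± 0.36, with an adjusted p of 0.384 by edgeR and 0.00765 by DESeq2. Scarb1, a lipoprotein receptor, was at 41.3, 36.9 and 42.1 CPM against 30.2, 25.9 and 26.2 CPM, without overlap (-0.55 ± 0.15). Of 14 genes that use isoprenoids, 8 had lower and 6 higher fitted values (median -0.10), and none was at an unadjusted p under 0.05 by edgeR.

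Marker genes of cell types and cell state also differed between libraries. The collagen gene Col1a1 was at 30664, 31873 and 43732 CPM in wild-type and at 42395, 19380 and 16403 CPM in DdblGata1. It was thus within the wild-type range in DdblGata1 replicate 4 and below it in replicates 9 and 10, as Hmgcs1, Fdft1 and Sqle were. Col1a2 had the same split, at 25146, 26918 and 38052 CPM against 36007, 19709 and 18421 CPM. Both collagen genes were named after their values were seen. With replicate 4 left out, 19% of all genes were below all wild-type libraries in both replicates 9 and 10. Of the 9 fibroblast markers, however, 7 had higher fitted values in DdblGata1 (median 0.14), and Dcn was higher in all 3 DdblGata1 libraries. The 9 smooth muscle markers all had lower fitted values, with sums of 8800 to 13963 CPM in wild-type and 6092 to 9361 CPM in DdblGata1. Here replicate 4 was the lowest library, unlike in the synthesis genes. The 13 genes of the response to tissue dissociation summed to 6208 to 6541 CPM in wild-type and 8387 to 9897 CPM in DdblGata1, and these sums did not overlap. Of the 13, 11 had higher and 2 lower fitted values, and 8 were above wild-type in all DdblGata1 libraries (background 8.98%).

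Proliferation genes (14) summed to 434 to 503 CPM in wild-type and 357 to 435 CPM in DdblGata1. Epithelial markers (11) summed to 1239 CPM in wild-type replicate 1 and 205 to 326 CPM in the other 5 libraries. Leukocyte markers were low, with a sum of 14.5 to 38.0 CPM over 6 measured of 8 genes in wild-type and 10.1 to 16.8 CPM in DdblGata1. Most of this was Lyz2, at 19.7, 14.6 and 9.78 CPM against 9.20, 8.84 and 6.75 CPM. Lyz2 and Rac2 were below wild-type in all DdblGata1 libraries (background 7.34%), with unadjusted edgeR p of 0.0195 and 0.0241 (background 4.23% lower under 0.05). Rac2 was low, at 2.71, 1.52 and 0.982 CPM against 0.917, 0.232 and 0.355 CPM. The groups of the other measured leukocyte markers overlapped. Of the 6, 5 had lower fitted values, and Fcer1g had a higher one (1.07 ± 0.77). Of 5 eosinophil markers, only Ccr3 was in the table, at 0.360 to 1.1 and 0.166 to 0.258 CPM, and Epx had 0 estimated counts in all libraries. The other eosinophil markers had few estimated counts, with no common direction. Siglecf had 16, 6 and 5 in wild-type against 6, 1 and 7 in DdblGata1. Prg2 had 7, 3 and 2 against 0, 26 and 11, and Il5ra had 4, 7.41 and 1.12 against 1, 11.1 and 13.6, so both were highest in DdblGata1 replicates 9 and 10. Endothelial markers (9) summed to 39.1 to 48.0 and 32.4 to 44.8 CPM. Sums for enteric glia (6 genes) were 134 to 341 and 154 to 252 CPM, and those for enteric neurons (7) were 57.6 to 114 and 73.5 to 115 CPM. Interstitial cells of Cajal (4) gave 342 to 431 and 216 to 391 CPM, and mesothelium (5) 189 to 359 and 225 to 414 CPM. The part of any of these in the pathway's values was not tested.

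The sample sheet that was deposited also gives a score per library, its second surrogate variable. Its values were -0.34, 0.08 and 0.46 in wild-type, against 0.59, -0.35 and -0.44 in DdblGata1. It was thus highest in DdblGata1 replicate 4 and lowest in replicate 10, the order of the pathway within that group. The first surrogate variable had that order too, at 0.07, -0.11 and -0.48 in DdblGata1, with 0.81, -0.31 and 0.02 in wild-type. On the second, wild-type replicate 1 was level with DdblGata1 replicate 9, while their pathway medians were -0.02 and -0.39. How these variables were made is not given. They may have been computed from the same counts, so a shared order is not independent support. With both deposited variables as covariates, 7 members were lower at an unadjusted edgeR p of 0.05, where 6.04% of all genes were, and the median was -0.23. With genotype and both covariates fitted, few of the 6 libraries remain to estimate the spread.

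Transcript usage within genes was tested with diffSpliceDGE, which asks whether a gene's transcripts change their shares. Over all genes, 0.254% passed an adjusted p of 0.05, and none of the 24 pathway genes that could be tested did. None of the 24 was at an unadjusted p under 0.05 either. Without DdblGata1 replicate 4, 1 of 26 passed, Tm7sf2, with an adjusted p of 0.0417, where 70 of 10082 genes did. The longest Srebf2 transcript (5077 bases) held 80.4% to 89.6% of the gene's counts in every library, and the main Sqle transcript (2758 bases) held 96.9% to 99.2%. A Tm7sf2 transcript of 1471 bases held 53.7%, 62.2% and 62.5% of that gene's counts in wild-type, against 72.6%, 0.890% and 16.3% in DdblGata1. The share of this form was lowest in replicates 9 and 10, where the gene's level was also lowest. With all 6 libraries its own unadjusted p was 0.797 by diffSpliceDGE. The lowest of the gene's forms was 0.0241, for 1 of 1498 bases, and the p of the gene was 0.120. That form held 0%, 2.97% and 0% in wild-type, against 9.30%, 16.1% and 20.1% in DdblGata1. The coding Mvd transcript of 1756 bases held 50.9%, 100% and 49.6% against 18.1%, 59.7% and 100%, with the rest in a form marked for nonsense-mediated decay, and its groups overlapped. All these shares rest on estimated counts and can vary widely within a genotype, as those of Tm7sf2 and Mvd did. Whether reads were divided rightly between similar forms was not tested.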

How the data were processed

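RNA of 6 libraries was sequenced, grouped here by the genotype label. The submitters' processing notes list bcl2fastq 2.2, kallisto, DESeq2 and R 4.2.2, and GRCm38.p6 and mm10 as builds, without their roles. The authors deposited a gene table of estimated counts, rounded to whole numbers. Of its values, 99.7% equalled length-scaled TPM within 1% plus 1 count, so the counts are scaled to gene length. No gene had under 10 counts in more than 3 of the 6 libraries. The deposited transcript files give estimated counts, TPM and other values, namely lengths in bases. A sample sheet, also deposited, holds for each library its size factor (a ratio) and 2 surrogate variables (a score).

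Transcripts were placed in genes with GENCODE M21 (113492 of 115270). Genes were tested with edgeR 4.0.16 in R 4.3.3 (TMM, filterByExpr, robust quasi-likelihood fits, Benjamini-Hochberg over all genes), and log2 differences are those of the fit. No covariate was used. No gene was removed by the filter. CPM are TMM-scaled. Alternatives were DESeq2 1.42.0, limma 3.58.1 (voom, or trend on log2(TPM + 1)), further filters and scalings, plain transcript sums, the surrogate variables and leaving out each library. The scripts were tested on simulated data.

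The 29 genes, the lists and the rules were chosen with earlier results of these data known. All 29 genes are named, with up to 4 genes of each related list by smallest p. Col1a1 and Col1a2, fibroblast markers that share a split between the DdblGata1 libraries, were named after their values were seen. Some genes of the pathway are not reported here.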

Additional observations from a re-analysis of the deposited data

How the results depend on the processing

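No paired analysis was possible because the groups share only 1 replicate number, 4, and nothing in the labels ties samples of the same number. Over 21 alternatives, 571 of 609 member values kept their direction and their side of the threshold, 12 passed it (all by DESeq2 without DdblGata1 replicate 4) and 26 changed sign, in 8 genes with estimates between -0.36 and 0.04; the other 21 genes never changed sign. The cause was not tested. The sign changes were Lss (0.051) and Scap (0.071) on log2(TPM + 1), Scap (0.026), Mbtps2 (0.11) and Npc1 (-0.030) with plain transcript sums, and Acat2 (0.013) and Scap (0.055) with the surrogate variables. Plain sums also moved Insig2 from 0.78 to 0.034, with no member then higher at an unadjusted p of 0.05, Lss to -0.47, Dhcr7 to -0.64 and Ebp to -0.29. With 1 library left out, by edgeR or DESeq2, estimates ranged over -0.14 to 0.083 for Lss, -0.23 to 0.21 for Scap, -0.090 to 0.095 for Npc1, -0.40 to 0.01 for Sc5d, -0.64 to 0.068 for Hsd17b7 and -0.34 to 0.0003 for Dhcr7.

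DESeq2 called 214 genes where edgeR called 0; without 1 library edgeR called 0 to 1 and DESeq2 43 to 1025. Members called ranged from 0 to 12. Members lower at an unadjusted p of 0.05 were 4 (4.23% of all genes), but 7 by DESeq2 (5.54%), 8 by limma-voom (4.35%), 7 with the surrogate variables (6.04%) and 1 to 17 without 1 library (2.47% to 10%). Members below wild-type in all DdblGata1 libraries were 4, but 2 on log2(TPM + 1) and 5 to 20 without 1 library, a looser condition with fewer libraries. Genes called for transcript usage were 24, but 47 by the F test, 0 with a 10% share filter and 2 to 70 without 1 library. The SEs of the members were 0.14 to 0.34 on the log2 scale, which limits the differences that 3 libraries a group can call.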
